A study of Homo sapiens with 32 samples.

Results

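The response of A375 G579S cells to OTS964 was measured in 4 of the 32 RNA-seq libraries of the series, chosen by their titles: 2 from cells given OTS964 at 100 nM for 6 h and 2 from cells given DMSO for the same time. A375 is an established human melanoma line. OTS964 is a small-molecule kinase inhibitor, first named as an inhibitor of PBK and later shown to act on CDK11. The series paired G579S cells of A375, DLD1 and the breast cancer lines Cal51 and MDA-MB-231 with wild-type cells of the same name, and its design text calls the G579S cells resistant to CDK11 inhibition and the wild-type cells sensitive. The groups used below are A375 G579S with OTS964 or DMSO, A375 wild-type with OTS964 or DMSO, and the G579S cells of the other lines with OTS964 or DMSO, with 2 libraries in each group. The labels do not name the mutated gene, nor say whether a line is 1 clone or whether replicates are separate cultures, so the p-values measure only the spread between these libraries, which may be technical. The deposited values are read estimates per transcript and do not show the sequence change itself.

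As background, CDK11A and CDK11B are near-identical kinases that work with the cyclins CCNL1 and CCNL2. CDK11 phosphorylates SF3B1, a protein of the U2 small nuclear particle, and this step is needed for the spliceosome to become active. G579S is known from earlier work as a substitution in the kinase domain of CDK11B that lets cells grow in OTS964. In such cells, what the inhibitor still changes is the response that remains when its main target is altered.

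The libraries held 29742687 and 18497409 estimated reads with OTS964, against 20770317 and 20421939 with DMSO. Of 14 melanocyte markers, 8 were at 1 CPM (reads scaled to a common library size) or more in both OTS964 and both DMSO libraries, led by SOX10, ERBB3 and MIA, and their sum was 1579 to 1629 CPM with OTS964 and 1668 to 1689 CPM with DMSO. MLANA was at 0 in all 4 libraries and TYR at or near 0. None of 9 colorectal markers and none of 6 immune markers reached 1 CPM in either group. Fewer cells of a type and less RNA per cell cannot be told apart in such bulk samples. The 2 OTS964 libraries differed by more than sampling noise, with a chi-square per degree of freedom of 25.4 over genes, and so did the 2 DMSO libraries, with 5.68. The 4 libraries labelled DLD1 wild-type held 37.2 to 106 CPM of the colorectal markers and 748 to 1256 CPM of the melanocyte markers, against 1497 to 1953 and 88.5 to 99.2 CPM in the DLD1 G579S libraries. They go against their label, enter only the shared estimate of the spread, and are in no comparison here; their marker and REV3L levels alone are given.

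OTS964 changed few genes in A375 G579S cells. Of 14318 genes tested, 94 were called (0.657%) at an adjusted p under 0.05 by edgeR's quasi-likelihood test: 55 higher (0.384%) and 39 lower (0.272%) with OTS964. The changes were small, with a median size of 0.70 on the log2 scale, and 17 genes changed by 2-fold or more. In each of the 94 genes both OTS964 libraries lay on the same side of both DMSO libraries, as they did in 46.3% of all genes tested. The same test in A375 wild-type cells called 6564 genes (45.8%), 2981 higher and 3583 lower. The smallest p-values belonged to IVNS1ABP and PRPF3, which rose, and the called genes also included CCN1 and CCN2, which rose, and TMEM129, MFSD12 and FANCL, which fell.

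The number of calls depended on the setting. It was 34 without OTS964 replicate 1, 25 without OTS964 replicate 2, 15 without DMSO replicate 1 and 19 without DMSO replicate 2; 365 with DESeq2, 266 in a fit of the 8 A375 libraries, 217 without the 4 DLD1-labelled wild-type libraries, and 4 in a fit of the 4 libraries alone. With library totals in place of TMM scaling, 35 genes were higher and 115 lower, against 55 and 39 with TMM, and the median log2 fold change of all genes was -0.06 in place of 0. Single calls varied as well: of the 94 genes, 1 was called in all 13 alternatives run on single genes, 14 in 10 or more and 36 in 6 or fewer, with a median of 7. In the fit of the 4 libraries alone, whose spread comes from these libraries only, 2 of the 94 were still called.

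**Figure D1:**
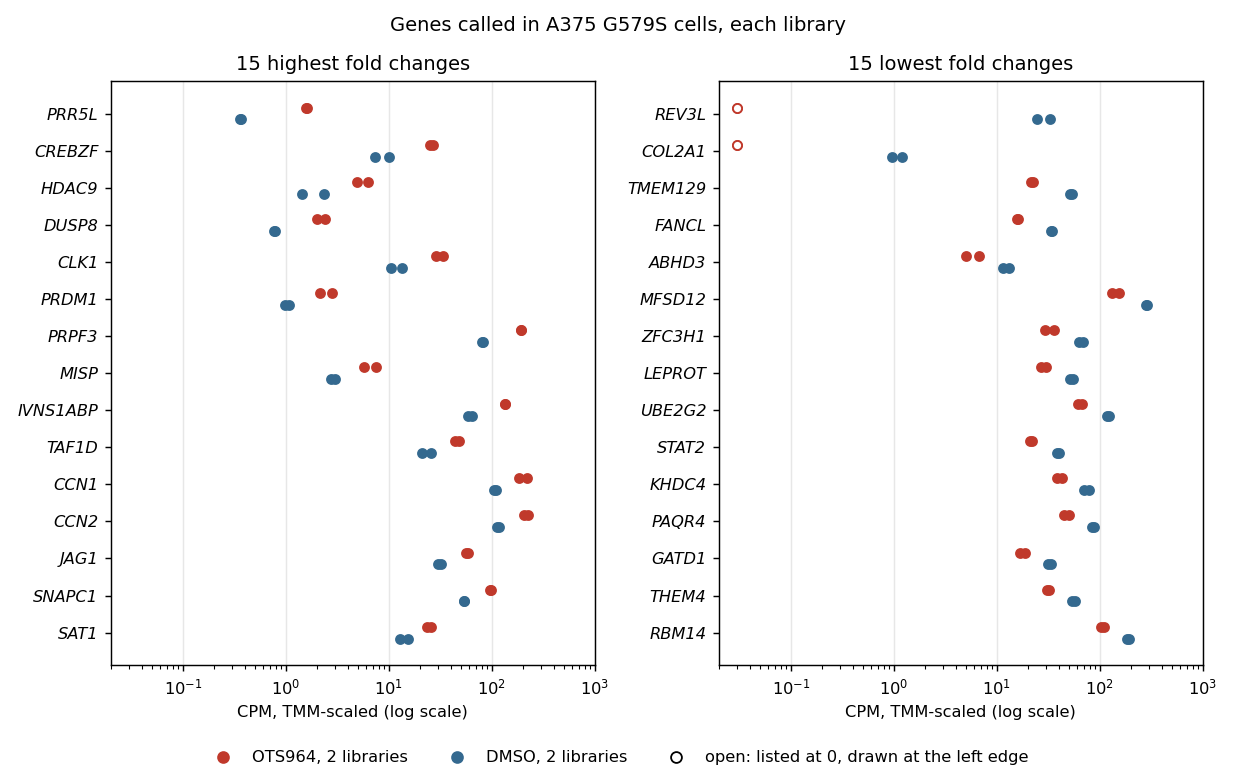
Level of the 15 called genes with the highest and the 15 with the lowest fold change in A375 G579S cells, in CPM scaled by TMM factors on a log axis, with 1 point per library and OTS964 above DMSO in each row. In every row the 2 OTS964 libraries lie apart from the 2 DMSO libraries, and REV3L and COL2A1 are listed at 0 in both OTS964 libraries.

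The kinase and its partners did not pass the test. CDK11A had 44.1 and 38.7 CPM with OTS964 and 38.8 and 40.8 CPM with DMSO, a log2 fold change of 0.06 ± 0.15 (SE, adjusted p = 1). CDK11B had 54.3 and 48.4 CPM with OTS964 and 52.9 and 51.9 CPM with DMSO, a log2 fold change of -0.03 ± 0.16 (adjusted p = 1). The groups overlapped for both genes. Reads of these copies can be split wrongly between them, and their summed level was 98.4 and 87.2 CPM with OTS964 against 91.7 and 92.7 CPM with DMSO. CCNL1, a cyclin partner, had 17.7 and 16.6 CPM with OTS964 and 11.2 and 5.46 CPM with DMSO (log2 fold change 1.04 ± 0.36, adjusted p = 0.31). CCNL2 had 27.7 and 28.9 CPM with OTS964 and 16.3 and 22.4 CPM with DMSO (0.55 ± 0.26, adjusted p = 0.55). Neither cyclin passed the threshold, and their groups did not overlap, which held for 46.3% of all genes. In wild-type cells CCNL1 rose by 2.73 on the log2 scale (adjusted p = 6.5e-06), and the CCNL1 responses of the genotypes differed (-1.69, adjusted p = 0.015). PBK, a mitotic kinase, had 47.2 and 49.2 CPM with OTS964 and 56.8 and 50.7 CPM with DMSO (-0.16 ± 0.16, adjusted p = 0.94). Of 15 other transcription kinases and cyclins none was called, and their median log2 fold change was 0.09 with TMM scaling, beside 0 over all genes, and 0 with library totals, beside -0.06 over all genes.

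Splicing genes were among the called genes that rose. PRPF3, a protein of the U4/U6 particle of the spliceosome, had 192 and 191 CPM with OTS964 and 82.7 and 79.7 CPM with DMSO. The OTS964 libraries lay close together and far above both DMSO libraries, a log2 fold change of 1.24 ± 0.12 (adjusted p = 1.4e-05), and PRPF3 was called in all 13 alternatives run on it. IVNS1ABP, a kelch protein found at nuclear speckles and named for its binding to an influenza protein, had the smallest p of all genes tested. It belongs to none of the gene lists used here and was set beside the splicing genes after its value was seen. It had 136 and 134 CPM with OTS964 and 64.9 and 59.2 CPM with DMSO, a log2 fold change of 1.12 ± 0.08 (adjusted p = 1.8e-07), and was called in 12 of 13 alternatives. CLK1, a kinase that phosphorylates SR splicing factors, had 28.5 and 33.5 CPM with OTS964 and 10.6 and 13.5 CPM with DMSO (1.36 ± 0.22, adjusted p = 0.004), and was called in 10 alternatives. SRSF1, an SR protein, had 639 and 657 CPM with OTS964 and 513 and 478 CPM with DMSO, a smaller rise (0.39 ± 0.08, adjusted p = 0.019) that was called in 6 alternatives.

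Of 23 SR proteins and splicing kinases tested, 2 rose (CLK1 and SRSF1) and none fell. Over all genes 0.384% rose and 0.272% fell, the background for each list count of this fit here and below. The list's median log2 fold change was 0.28 beside 0 over all genes, and 17 members had a positive and 6 a negative value. Between replicates of the G579S groups the list's median level had a pooled SD of 0.157 on the log2 scale. In the fit of the 8 A375 libraries 7 of these 23 rose and none fell, beside 1.12% of all genes higher and 0.997% lower in that fit, while with library totals 1 rose and 1 fell, beside 0.244% of all genes higher and 0.803% lower. The members just short of the threshold pointed both ways. SRSF2 had 589 and 614 CPM with OTS964 and 374 and 391 CPM with DMSO (adjusted p = 0.089), and SRSF7 had 239 and 221 CPM with OTS964 and 167 and 161 CPM with DMSO (adjusted p = 0.074). SRSF5 had 16.6 and 6.93 CPM with OTS964 and 30.2 and 31.1 CPM with DMSO (adjusted p = 0.067), the reverse order. Of 34 spliceosome core and Sm proteins 1 rose, PRPF3, and the median was 0.22 (replicate SD 0.149). Of 12 genes of the SF3A and SF3B complexes and U2AF, 1 rose and all 12 had a positive value, with a median of 0.24 (replicate SD 0.046). That gene was SF3B3, with 558 and 590 CPM with OTS964 and 447 and 464 CPM with DMSO (0.33 ± 0.08, adjusted p = 0.046). It was called in 4 of the 13 alternatives, and none of the 12 was called with library totals (median 0.16) or with DESeq2-type size factors (median 0.23), where 0.342% of all genes were higher and 0.258% lower. SF3B1 itself, a substrate of CDK11, had 244 and 268 CPM with OTS964 and 237 and 236 CPM with DMSO (adjusted p = 0.91).

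Several called genes outside these lists also encode proteins that bind or process RNA; they were singled out after their values were seen and are no test of a theme. HNRNPL had 883 and 803 CPM with OTS964 and 564 and 563 CPM with DMSO (0.58 ± 0.07, adjusted p = 0.0003). HNRNPA1, another protein that coats pre-mRNA, had 2398 and 2333 CPM with OTS964 and 1609 and 1579 CPM with DMSO (0.57 ± 0.09, adjusted p = 0.004); HNRNPA1 and ACTG1 have near-identical copies with which reads can be shared. SF1, which binds the branch point, rose by 0.44, the U5 helicase DDX23 by 0.50, CHERP by 0.40 and RBM22 by 0.38, all log2 fold changes with adjusted p between 0.022 and 0.04; these were called in 5, 6, 3 and 4 of the 13 alternatives in that order, against 12 for HNRNPL and 10 for HNRNPA1. TAF1D, a subunit of the RNA polymerase I factor SL1, rose by 0.96, and SNAPC1, a subunit of the complex that drives small nuclear RNA genes, by 0.87. Others of this kind fell. KHDC4 had 38.7 and 42.7 CPM with OTS964 and 79.2 and 70.5 CPM with DMSO (-0.88 ± 0.14, adjusted p = 0.004). ARGLU1 fell by 0.62, RBM14 by 0.82 and RBM12 by 0.64, DGCR8, which works with DROSHA on microRNA precursors, by 0.63, and ZFC3H1, which links nuclear polyadenylated RNA to the exosome, by 1.01.

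Called genes included targets of the transcriptional regulators YAP and SRF. Of 26 tested, 3 were called higher (CCN1, CCN2 and ACTG1) and none lower, beside 0.384% of all genes higher and 0.272% lower. A positive value was found for 25, and the median log2 fold change was 0.30 (replicate SD 0.043), beside 0 over all genes. With library totals (median 0.22) 2 were called, beside 0.244% of all genes higher. With DESeq2-type size factors (median 0.29) 2 were called, beside 0.342% of all genes higher. CCN2, a secreted matrix-associated protein and a classic YAP and TEAD target, had 226 and 205 CPM with OTS964 and 113 and 119 CPM with DMSO, so that both OTS964 libraries stood well above both DMSO libraries (0.90 ± 0.11, adjusted p = 0.0003). CCN1, its relative, had 221 and 186 CPM with OTS964 and 105 and 111 CPM with DMSO (0.91 ± 0.19, adjusted p = 0.025). ACTG1, cytoplasmic gamma-actin, had 4819 and 4279 CPM with OTS964 and 3372 and 3370 CPM with DMSO (0.43 ± 0.10, adjusted p = 0.049), and was called in 4 alternatives, against 12 for CCN2 and 7 for CCN1. ANKRD1, another YAP target, had 8.44 and 8.53 CPM with OTS964 and 5.04 and 4.42 CPM with DMSO (adjusted p = 0.12). Of 44 immediate early genes, 3 rose (CCN1, CCN2 and RHOB, the small GTPase) and none fell, beside 0.384% and 0.272% of all genes. Their median was 0.22 (replicate SD 0.056). In the fit of the 8 A375 libraries 7 of these 44 rose, where 1.12% of all genes did. JUN had 101 and 80.2 CPM with OTS964 and 47.7 and 53.6 CPM with DMSO without passing the threshold (adjusted p = 0.42), and MYC had 55.6 and 50.1 CPM with OTS964 and 46.4 and 45.1 CPM with DMSO (adjusted p = 0.8).

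The stretches of 200 bases before the start of CCN2, ACTG1 and RHOB are shown because these are the called YAP, SRF and immediate early genes with a RefSeq promoter entry; CCN1 has none in the table used. Sequences are from GRCh38.p14, 5′ to 3′ on the gene's strand. CCN2 lies at chr6:131951373-131951572, minus strand, ACTG1 at chr17:81512800-81512999, minus strand, and RHOB at chr2:20446874-20447073, plus strand. Capitals mark the TEAD core GGAATG, searched on both strands, and the CArG box bound by SRF.
CCN2: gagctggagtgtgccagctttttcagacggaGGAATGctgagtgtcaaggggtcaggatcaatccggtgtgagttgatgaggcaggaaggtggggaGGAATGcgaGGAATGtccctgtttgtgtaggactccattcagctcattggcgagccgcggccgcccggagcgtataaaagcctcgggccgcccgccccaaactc
ACTG1: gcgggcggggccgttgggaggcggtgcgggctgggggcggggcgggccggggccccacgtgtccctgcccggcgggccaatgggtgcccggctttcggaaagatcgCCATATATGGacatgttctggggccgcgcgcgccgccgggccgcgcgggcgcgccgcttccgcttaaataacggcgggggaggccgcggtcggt
RHOB: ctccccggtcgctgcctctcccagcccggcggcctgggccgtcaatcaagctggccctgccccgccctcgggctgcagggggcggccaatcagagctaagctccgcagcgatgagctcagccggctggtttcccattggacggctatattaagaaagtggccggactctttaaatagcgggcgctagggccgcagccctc
The CCN2 stretch holds 3 TEAD cores, the ACTG1 stretch 1 CArG box, and the RHOB stretch neither. A TEAD core occurs in 7.10% of the 11587 promoters of tested genes, over the same length, and in 9 of the 76 called genes with an entry. A CArG box occurs in 0.898% of the promoters and in 2 of those 76. These matches are descriptions of sequence and not of binding.

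Other called genes that rose encode signalling and surface proteins. EPHA2, a receptor tyrosine kinase, had 513 and 426 CPM with OTS964 and 306 and 297 CPM with DMSO (0.64 ± 0.14, adjusted p = 0.033). CCND1, cyclin D1, had 912 and 947 CPM with OTS964 and 698 and 711 CPM with DMSO (0.40 ± 0.08, adjusted p = 0.018). These 2, each called in 6 alternatives, were the called members of 29 ERK pathway genes, whose median was 0, beside 0.384% of all genes higher. With library totals and with DESeq2-type size factors 1 member was called, beside 0.244% and 0.342% of all genes higher in that order. JAG1, a Notch ligand, had 56.7 and 58.3 CPM with OTS964 and 30.3 and 32.4 CPM with DMSO (0.87 ± 0.14, adjusted p = 0.004). THBS1, a secreted glycoprotein, had 2003 and 2181 CPM with OTS964 and 1287 and 1300 CPM with DMSO (0.69 ± 0.15, adjusted p = 0.039) and was the called member of 17 genes of the dedifferentiated melanoma state. It was called in 5 of the 13 alternatives, and none of the 17 was called with library totals or with DESeq2-type size factors. Some genes with high fold changes had low levels. PRR5L had 1.58 and 1.60 CPM with OTS964 against 0.356 and 0.364 CPM with DMSO (2.12 ± 0.41, adjusted p = 0.018). HDAC9, a class IIa deacetylase, had 4.89 and 6.34 CPM with OTS964 against 1.42 and 2.34 CPM with DMSO. DUSP8, a phosphatase of stress kinases, had 2.43 and 2.01 CPM with OTS964 against 0.763 and 0.780 CPM with DMSO.

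Among the genes that fell, TMEM129, a ubiquitin ligase of the endoplasmic reticulum, had 22.6 and 21.4 CPM with OTS964 and 53.5 and 51.6 CPM with DMSO (-1.25 ± 0.16, adjusted p = 0.00073). UBE2G2, the conjugating enzyme of the same degradation route, had 62.0 and 66.9 CPM with OTS964 and 117 and 123 CPM with DMSO (-0.90 ± 0.13, adjusted p = 0.0028) and was called in 12 of 13 alternatives. FANCL, the ubiquitin ligase of the Fanconi core complex, had 15.6 and 16.1 CPM with OTS964 and 33.6 and 34.1 CPM with DMSO (-1.10 ± 0.22, adjusted p = 0.022). It was the called member of 34 homologous recombination and Fanconi genes, whose median was -0.09. RBM14, a coactivator that binds RNA, had 110.4 and 104 CPM with OTS964 and 183 and 193 CPM with DMSO (adjusted p = 0.0009).

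MFSD12, a transporter of melanosomes and lysosomes that affects pigment, had 153 and 130.5 CPM with OTS964 and 283 and 289 CPM with DMSO, about 1 unit lower on the log2 scale (-1.01 ± 0.17, adjusted p = 0.0051). None of 16 melanocyte lineage genes tested was called, with a median of 0.04. SOX10, the lineage factor, had 1015 and 975 CPM with OTS964 and 1019 and 1047 CPM with DMSO (adjusted p = 1), and MITF had 15.2 and 17.6 CPM with OTS964 and 13.8 and 13.3 CPM with DMSO (adjusted p = 0.99). STAT2, which carries type I interferon signals, had 21.0 and 22.2 CPM with OTS964 and 40.6 and 38.9 CPM with DMSO (-0.88 ± 0.17, adjusted p = 0.018) and was the called member of 32 interferon genes, whose median was -0.12. Among called genes singled out after their values were seen, PFN2, a profilin, fell by 0.70, TRIOBP by 0.71 and CDC42EP3 by 0.59, while EZR rose by 0.50 and CORO1C by 0.38, all log2 values.

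Both OTS964 libraries listed 2 called genes at 0. REV3L, the catalytic subunit of the translesion polymerase zeta, was at 0 in both OTS964 libraries and at 24.6 and 33.2 CPM with DMSO (adjusted p = 0.037). Its mean DMSO level was 197 times the mean floor of 3 counts per OTS964 library, a ratio of means and not a bound. REV3L was also at 0 in both OTS964 libraries of A375 wild-type cells, against 32.1 and 11.1 CPM with DMSO. Of the DMSO libraries labelled DLD1 wild-type, which go against their label, replicate 1 was at 0 too and replicate 2 had 18.0 CPM. COL2A1, a cartilage collagen, was at 0 in both OTS964 libraries and at 0.966 and 1.20 CPM with DMSO, a mean 7.37 times that floor (adjusted p = 0.00051). Such steps also occurred between replicates: 45 genes were at 0 in 1 of the OTS964 replicates while the other replicate held 5 CPM or more, and 43 genes did so between the DMSO replicates. HTR1D went the other way, with 0.385 and 0.355 CPM with OTS964 and 0 in both DMSO libraries, a mean 2.40 times the floor of the DMSO libraries.

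**Figure D2:**
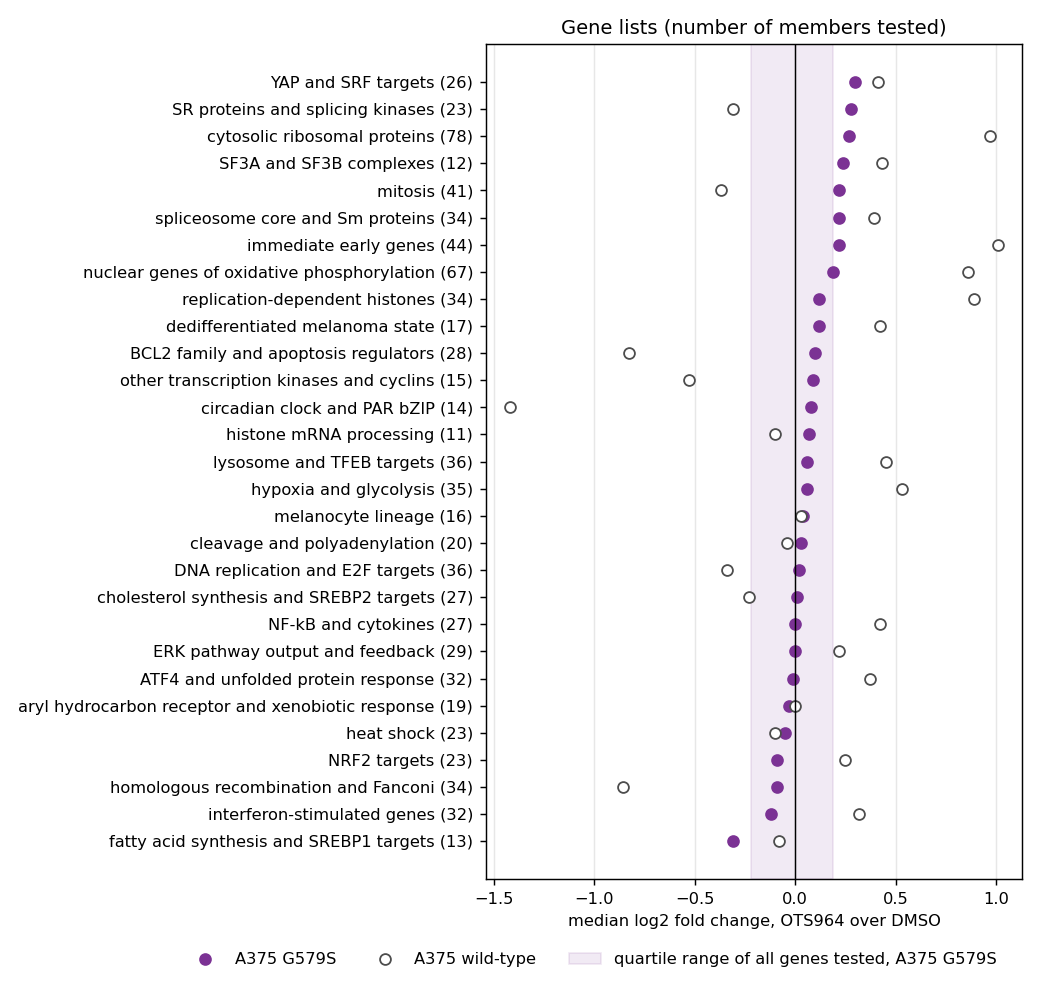
Median log2 fold change of the gene lists named on the vertical axis, each with 10 or more members tested, OTS964 over DMSO, in A375 G579S cells (filled) and A375 wild-type cells (open), with the range between the quartiles of all genes in A375 G579S cells shaded. Marker lists and the lists named in an earlier account of these data are not plotted. The G579S medians plotted lie between -0.31 and 0.30, and the wild-type medians plotted between -1.42 and 1.01.

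In the lists that follow no gene was called in the G579S cells, where 0.657% of all genes were called. In A375 wild-type cells 20.8% of all genes were called higher and 25% lower. Cytosolic ribosomal protein genes had a median of 0.27 (0.18 with library totals, beside -0.06 over all genes), with 77 of 78 values positive and none called. Between replicates of the G579S groups this list's median level had a pooled SD of 0.165 on the log2 scale. In wild-type cells 77 of 78 were called higher, with a median of 0.97. Nuclear genes of oxidative phosphorylation had a median of 0.19 (replicate SD 0.14) with 0 of 67 called, against 65 of 67 called higher in wild-type cells. Mitosis genes had a median of 0.22 (replicate SD 0.027) with 0 of 41 called. In wild-type cells 18 of the 41 were called lower, beside 25% of all genes. In the fit of the 8 A375 libraries 4 were called higher in G579S cells (1.12% of all genes). Fatty acid synthesis and SREBP1 targets had the lowest median of the lists with 10 or more members tested, -0.31 (replicate SD 0.039). Of their 13 values 10 were negative, and none was called. For DNA replication, heat shock, ATF4 and unfolded protein response, cholesterol synthesis, NRF2, NF-kB, lysosome, hypoxia, histone, histone processing, polyadenylation and apoptosis genes the medians lay between -0.09 and 0.12. Of the 23 heat shock genes, 10 had a positive and 13 a negative value. The fit of the 8 A375 libraries called 4 of these 23 lower and none higher, beside 0.997% of all genes lower and 1.12% higher. HSPA1A, the heat shock gene of smallest p, had 563 and 423 CPM with OTS964 and 849 and 906 CPM with DMSO. It was not called in the main fit (adjusted p = 0.2).

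The responses of the genotypes were then compared gene by gene, as the difference G579S minus wild-type. The test called 4860 of 14318 genes (33.9%). Of the 55 genes that rose in A375 G579S cells, 24 rose in wild-type cells (20.8% of all genes rose there), 16 fell (25% of all genes fell there) and 15 were not called. Of the 39 that fell in G579S cells, 19 fell in wild-type cells and 5 rose. The shared genes are 0.805% of those that rose and 0.530% of those that fell in wild-type cells.

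Some genes rose in both genotypes and less in G579S cells. CREBZF, a bZIP factor, had 25.4 and 26.9 CPM with OTS964 and 10.2 and 7.28 CPM with DMSO in G579S cells, a log2 fold change of 1.58 ± 0.31 against 5.68 in wild-type cells (difference -4.10, adjusted p = 8.6e-07). CCN1 rose by 0.91 in G579S cells and by 4.54 in wild-type cells (difference -3.63, adjusted p = 7e-09), and CCN2 by 0.90 in G579S cells and by 3.12 in wild-type cells (difference -2.22, adjusted p = 2.7e-09). PRDM1, a transcriptional repressor, had 2.16 and 2.78 CPM with OTS964 and 1.07 and 0.988 CPM with DMSO in G579S cells, a rise of 1.25 against 3.75 in wild-type cells (difference -2.50). SMAD7, an inhibitor of TGF-beta signalling, and CITED2, a transcriptional coregulator, rose by 0.53 and 0.74 in G579S cells and by 2.94 and 2.71 in wild-type cells. Of 12 genes named in an earlier account of these data as highest with OTS964 in wild-type cells, 3 rose in G579S cells (CREBZF, CCN1 and PRDM1), and all 12 had a lower response in G579S cells. Since that choice was made on these data, it is no independent evidence. Of 12 genes so named as lowest, none was called in G579S cells, with a median of 0.11, while all 12 fell in wild-type cells. NDEL1, a dynein regulator of that list, had 57.1 and 56.4 CPM with OTS964 and 55.4 and 51.5 CPM with DMSO in G579S cells.

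Other genes rose in G579S cells and fell in wild-type cells. CLK1 rose by 1.36 in G579S cells and fell by 2.59 on the log2 scale in wild-type cells (difference 3.95, adjusted p = 2.7e-08). IVNS1ABP averaged 40.9 ± 0.571 CPM with OTS964 and 71.7 ± 2.61 CPM with DMSO in wild-type cells (SD, n = 2 each), a change of -0.81, so the difference between genotypes was 1.93 (adjusted p = 4.8e-10). PRPF3 changed by -0.52 in wild-type cells (difference 1.76, adjusted p = 1.2e-07). JAG1, SNAPC1, SLC20A1, a phosphate transporter, AKAP8L and CHERP also rose in G579S cells and fell in wild-type cells, with differences between 1.76 and 2.45. In the other direction, CDC42EP3 and PFN2 fell in G579S cells and rose in wild-type cells, with differences of -1.71 and -1.27. KHDC4 and DGCR8 fell in both genotypes, and the fall was smaller in G579S cells (differences 1.60 and 0.83). For TMEM129, STAT2 and RBM14 the difference was not called (adjusted p = 0.092, 0.65 and 0.64). For REV3L, at 0 in the OTS964 libraries of both genotypes, the difference could not be estimated.

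**Figure D3:**
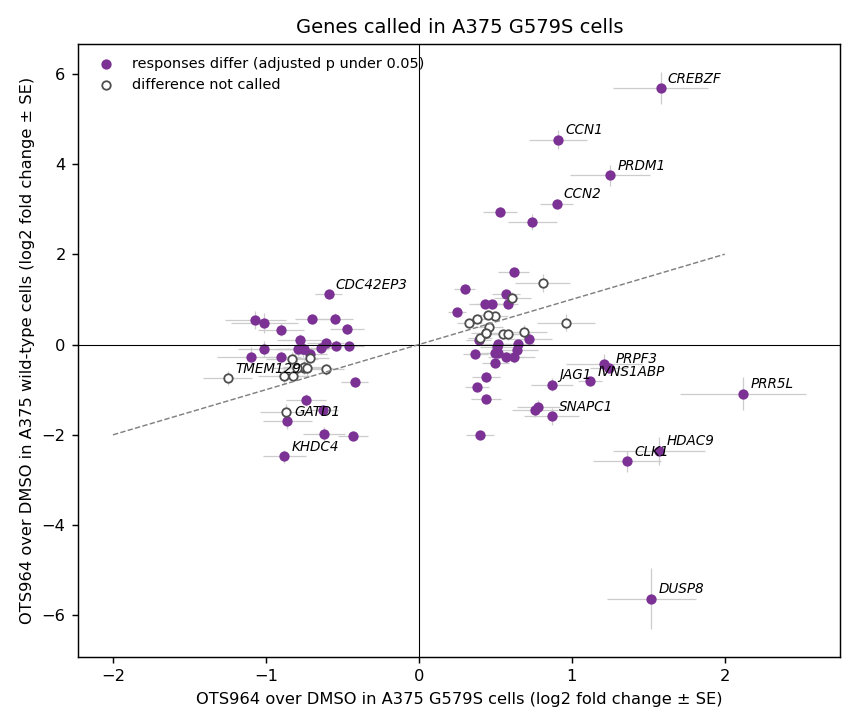
Log2 fold change with OTS964 in A375 G579S cells (horizontal) against A375 wild-type cells (vertical), with SE bars, for called genes; REV3L, COL2A1 and HTR1D, at 0 in a group, are left out. Filled points mark a difference between genotypes with an adjusted p under 0.05, and the dashed line marks equal values; CREBZF, CCN1, PRDM1 and CCN2 lie above it and CLK1 and HDAC9 below 0 on the vertical axis. DUSP8 is at 0 with OTS964 in wild-type cells, so its vertical place is a fitted value.

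The genes called in A375 G579S cells were set beside the G579S cells of the other lines, which share no library with them. In DLD1 G579S cells 37 of the 55 genes that rose also rose (67.3%, beside 10.8% of all genes) and none fell, and 34 of the 39 that fell also fell (87.2%, beside 12.7% of all genes) and 1 rose. These shared genes are 2.38% of the genes that rose and 1.87% of those that fell in DLD1 G579S cells, where 3371 genes were called. In Cal51 G579S cells, with 56 genes called, 4 of the 55 rose (0.14% of all genes rose) and 6 of the 39 fell (0.251%). In MDA-MB-231 G579S cells, with 44 called, 7 of the 55 rose (0.223%) and 1 of the 39 fell (0.0838%). The sign was the same in all 4 lines for 31 of the 55 and for 26 of the 39, while 10.6% of all genes were positive and 14.7% negative in the 3 other lines.

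IVNS1ABP rose in every G579S line, by 1.12 in A375, 0.40 in Cal51 (adjusted p = 0.026), 0.78 in DLD1 (adjusted p = 7e-07) and 0.48 in MDA-MB-231 (adjusted p = 0.011), all log2 values. HNRNPL rose by 0.58 in A375, 0.83 in DLD1 and 0.48 in MDA-MB-231, and was not called in Cal51 (0.23, adjusted p = 0.14). PRPF3 rose by 1.38 in DLD1 and was not called in Cal51 (0.49, adjusted p = 0.079) or MDA-MB-231 (0.14, adjusted p = 0.73). CREBZF rose by 2.09 in DLD1 and 1.78 in MDA-MB-231, and CCN1 by 0.70 and 1.05 in these lines. Neither was called in Cal51 (CREBZF 0.45, adjusted p = 0.58, and CCN1 0.15, adjusted p = 0.85). FANCL fell by 1.21 in Cal51 and 1.89 in DLD1, and was not called in MDA-MB-231 (-0.62, adjusted p = 0.28). TMEM129 fell by 2.85 in DLD1, beside 1.25 in A375, and was not called in Cal51 (-0.68, adjusted p = 0.079) or MDA-MB-231 (-0.02).

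**Figure D4:**
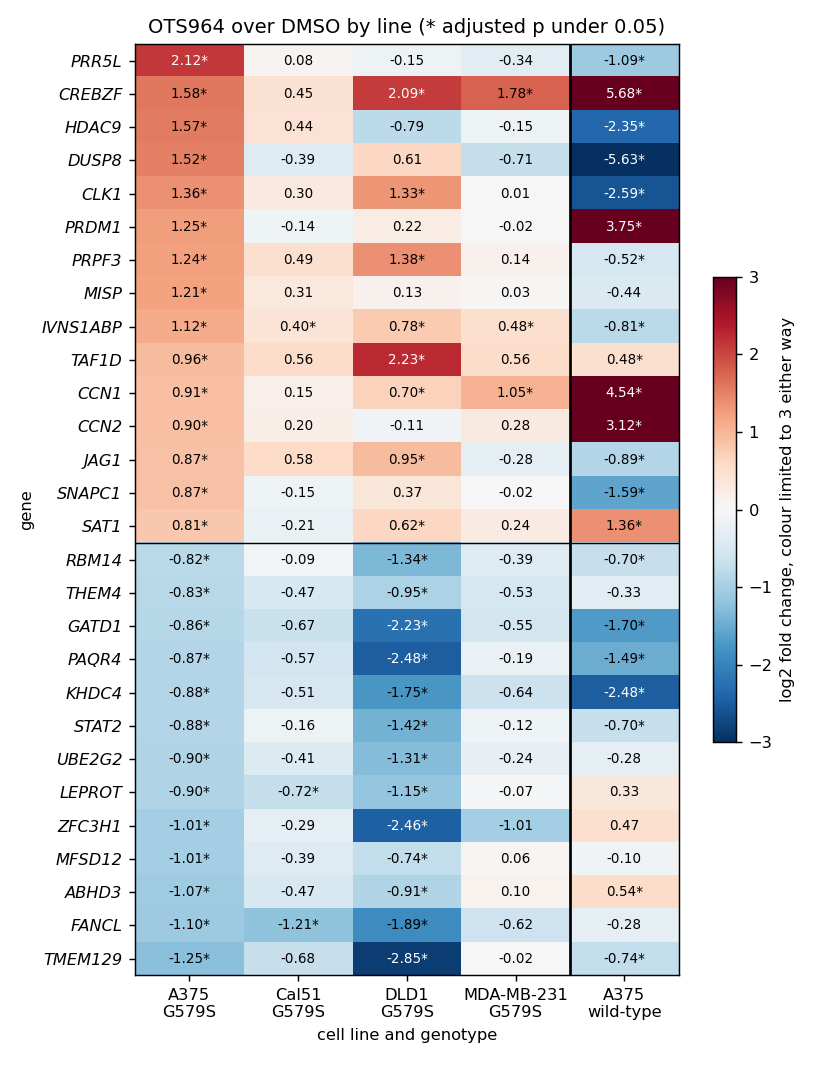
Log2 fold change with OTS964 of the leading called genes in the G579S cells of the 4 lines and in A375 wild-type cells, with values in the cells, an asterisk for an adjusted p under 0.05 and colours limited to 3 either way. DLD1 G579S cells share most directions with A375 G579S cells, while the wild-type column is called with the opposite sign for PRR5L, HDAC9, DUSP8, CLK1, PRPF3, IVNS1ABP, JAG1, SNAPC1 and ABHD3; REV3L and COL2A1 are left out, and DUSP8 in wild-type cells is a fitted value against 0.

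Against the mean response of the other 3 G579S lines, 10 of 14318 genes (0.0698%) differed in A375 G579S cells, 7 higher (0.0489%) and 3 lower (0.021%), with 963 at an unadjusted p under 0.05. CCN2 was higher by 0.77 (adjusted p = 0.014), beside changes of 0.20 in Cal51, -0.11 in DLD1 and 0.28 in MDA-MB-231. IVNS1ABP was higher by 0.56 (adjusted p = 0.014). CDC42EP3, an effector of the GTPase CDC42, was lower by 0.83 on the log2 scale, with 54.8 and 61.9 CPM with OTS964 and 91.5 and 84.0 CPM with DMSO in A375 and a rise of 0.79 in DLD1. CPSF4, a polyadenylation factor, was higher by 1.37 without being called in A375 (0.37, adjusted p = 0.39), beside a change of -2.28 in DLD1. This count was 202 without Cal51 G579S DMSO replicate 1 and between 2 and 18 without each other G579S library in turn.

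On single transcripts the test called 26 of 48841 identifiers (0.0532%), 15 higher and 11 lower. In 9 of them both libraries of a group were at 0. Of the 17 with counts in both groups, 14 belonged to genes already called, such as PRPF3 and CCN2. The other transcripts belonged to ATXN2L, MYADM and DPYD. Transcript NM_007245.3 of ATXN2L, a stress granule protein, had 214 and 203 CPM with OTS964 and 94.7 and 94.0 CPM with DMSO. The log2 fold change of its level was 1.14 ± 0.16 (adjusted p = 0.0073 by the quasi-likelihood test of transcripts). Its mean share of the gene's transcripts, which that test does not address, was 70.6% with OTS964 and 37.3% with DMSO. Transcript NM_001127195.1 of CNBP, a nucleic acid binding protein, had 60.9 and 62.4 CPM with OTS964 and 30.7 and 27.1 CPM with DMSO, a share of 15.6% with OTS964 and 9.98% with DMSO. Transcript usage was called in 9 of 7051 genes (0.128%) by the Simes method, and 94 genes were called in A375 wild-type cells. ATXN2L and CNBP were not among the 9 genes called for usage in G579S cells. In each of the 9 genes, among them SYNCRIP, CAV2 and TBRG4, the leading transcript was at 0 in both libraries of 1 group. SYNCRIP, an RNA-binding protein, had its transcript NM_001159677.1 at 0 in both OTS964 libraries and at 48.6 and 12.1 CPM with DMSO. Intron retention was not measured by these transcript models.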

How the data were processed

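RNA-seq libraries were grouped by their titles. The authors deposited 1 table per library with estimated counts and TPM per transcript, as the headers show, for 87398 identifiers. The deposited estimated counts are fractional and carry no normalization, and the deposited TPM values had been scaled for length and depth by the authors. No source used here names the quantification tool. The submitters' processing notes name the mouse builds GRCm38 and mm10, but the identifiers are human RefSeq ones, so no coordinates come from the files. Such estimates share reads among similar transcripts and paralogs, and a listed 0 can be a failed estimate.

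Identifiers were matched to genes through a human RefSeq table (42587, 48.7%; 99.1% of curated and 20.3% of predicted coding ones), which held 87.6% of the reads on average. Counts were summed to 18854 genes and rounded. Unmatched transcripts stayed out of gene tests. One fit of 16 groups over all 32 libraries used edgeR 4.0.16 in R 4.3.3 (TMM scaling, filter on low counts by group, robust quasi-likelihood F test, Benjamini-Hochberg threshold 0.05, 16 residual degrees of freedom). CPM values are TMM-scaled, and 3 counts correspond to 0.116 to 0.178 CPM. These floors hold for counting error alone, because PCR copies cannot be recognised. Transcript usage used diffSpliceDGE. The scripts were tested on simulated data. DESeq2 1.42.0 and the other settings of the closing section were alternatives; the fit of the 16 G579S libraries was added for the main response after seeing the data.

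Members and gene lists were chosen with earlier results of these data known. Genes were named by rule: the 15 highest and 15 lowest called fold changes at 1 CPM or more with non-overlapping groups, CDK11A, CDK11B, CCNL1, CCNL2 and PBK, up to 4 members per list by p, and up to 8 per direction from each difference. NDEL1 and other genes outside the rule were chosen after their values were seen. Of the list members, 7 were not found in the table under the symbol used and were not analysed here.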

Additional observations from a re-analysis of the deposited data

Results flagged for a closer look

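The log2 responses of these called or named genes differed between A375 G579S and A375 wild-type cells in the test of the difference itself (G579S minus wild-type, adjusted p under 0.05). Differences were positive for genes that rose in G579S cells and changed less or fell in wild-type cells: PRR5L 3.21, HDAC9 3.92, CLK1 3.95, PRPF3 1.76, MISP 1.64, IVNS1ABP 1.93, JAG1 1.76, SNAPC1 2.45, EPHA2 0.77 and SRSF1 0.29. They were also positive for KHDC4 at 1.60 and GATD1 at 0.84, which fell in both genotypes and less in G579S cells. Differences were negative for genes that rose more in wild-type cells: CREBZF -4.10, PRDM1 -2.50, CCN1 -3.63, CCN2 -2.22, RHOB -0.98 and ACTG1 -0.47. They were negative as well for genes that fell in G579S cells: FANCL -0.82, ABHD3 -1.61, MFSD12 -0.91, ZFC3H1 -1.47, LEPROT -1.23, UBE2G2 -0.61 and CDC42EP3 -1.71. DUSP8, at 7.15, and COL2A1, at -5.86, are fitted values against a group at 0 and give no bound.

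Against the mean of the other G579S lines, the test of the difference flagged IVNS1ABP at 0.56, CCN2 at 0.77 and CDC42EP3 at -0.83. Groups of 2 libraries were too small for a search for libraries that stand apart.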

How the results depend on the processing

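The count of called genes in the response, 94, was 86 with DESeq2-type size factors, 74 with no filter and 103 with length-scaled TPM. It was 59 when a 1.5-fold change was also required, 150 with library totals, 365 with DESeq2 (180 higher and 185 lower, with 4993 adjusted p-values not given), 266 with the 8 A375 libraries, 281 with the 16 G579S libraries, 4 with the 4 libraries alone, 217 without the DLD1-labelled wild-type libraries and 15 to 34 with each library left out. All 94 genes were called with DESeq2 and 12 to 24 of them with a library left out. For the difference to the other G579S lines, 10 genes became 29 with library totals, 6 with no filter, 161 with DESeq2, 90 with the 16 G579S libraries and 2 to 202 with each library left out. Transcripts called, 26, were 18 to 21 with a library left out. Genes called for usage, 9, were 16 by the F test and 3 to 10 with a library left out.

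Replicate numbers were tried as a block. The numbers were not taken to pair libraries, because the labels do not say that equal numbers mark a shared culture or day. Libraries of the same number also did not deviate together in A375 G579S cells (correlation -0.08). With the replicate block the response had 25 calls, the difference to the other lines 0, the transcripts 16, the wild-type response 6252 and the genotype difference 4434. Wild-type calls, 6564, were 5421 to 5475 with a library left out, and genotype differences, 4860, were 3859 to 4622. With library totals the wild-type response split into 1342 higher and 5069 lower, against 2981 and 3583 with TMM, and the genotype difference into 3600 and 862, against 2712 and 2148; with DESeq2-type size factors the genotype difference split into 2436 and 2695. No called value changed sign in the settings run; of the named genes' values, 2187 kept their side of the threshold, 74 passed it newly and 189 no longer passed it. The cause of these changes was not tested. Depth limits low genes: below 1 CPM a level rests on few counts.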

Other observations

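REV3L, the catalytic subunit of the translesion polymerase zeta, was listed at 0 in 9 of the 32 libraries. These were both OTS964 libraries of A375 G579S cells, both OTS964 libraries of wild-type A375, Cal51 and DLD1-labelled cells, and DMSO replicate 1 of the DLD1-labelled wild-type cells. In the OTS964 libraries of the other G579S lines REV3L had 56.3 and 44.3 CPM in Cal51, 35.9 and 49.9 CPM in DLD1, and 28.4 and 24.4 CPM in MDA-MB-231. In wild-type MDA-MB-231 cells it had 2.95 and 5.78 CPM with OTS964 and 27.4 and 31.1 CPM with DMSO. Reads on identifiers not matched to a gene were not used in these values.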
